A study of Homo sapiens with 12 samples.

Results

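The genes described here encode the ABC proteins of human cells, as measured by RNA sequencing of LNCaP, an established prostate cancer line that responds to androgen. Members were the rows of the count table whose Ensembl ID maps to a protein-coding symbol of subfamilies A to G, and 44 of the 63677 rows qualified. The 12 libraries fell into 4 groups of 3, all of LNCaP cells grown in hormone-proficient medium. The first group overexpressed USP22 and was set against cells with the pLPLUC vector control. The other pair carried an shRNA against USP22 (shUSP22-4693) or a control shRNA, and both of these were kept for 5 days in doxycycline (1 ug/mL, renewed every 48 hours). The labels name 1 shRNA against USP22 and leave unsaid if the replicates are independent cultures, and the spread behind each p-value may therefore be technical.

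ABC proteins share an ATP-binding cassette, a domain that binds and splits ATP. Most members couple it to membrane spans and pump lipids, conjugated drugs, bile salts, peptides or metal-linked compounds across a membrane, whereas subfamilies E and F have no membrane spans and act on ribosomes. In prostate cancer cells the family is best known for drug efflux and for export of cholesterol, from which androgens are made. USP22, the gene raised or lowered here, encodes a ubiquitin protease of the SAGA coactivator complex.

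The libraries held 77607469 to 103690001 counted reads, of which the 44 members took 0.135% to 0.16%. USP22 averaged 1466 ± 52.2 CPM (reads scaled to a common library size) in overexpressing cells against 512.5 ± 45.9 CPM with the vector, and 257.6 ± 7.38 CPM in depleted cells against 477.6 ± 3.65 CPM in the shRNA control (SD, n = 3 each). The 10 luminal prostate markers checked, among them KLK3, summed to 5675 to 5765 CPM in overexpressing cells and 5989 to 6084 CPM with the vector alone, and to 5764 to 6271 CPM in depleted cells and 7617 to 7937 CPM in the shRNA control. Of these genes KLK3 fell most, to 326 ± 34.0 CPM in depleted cells from 1428 ± 35.0 CPM in the shRNA control. FOLH1 was higher in depleted cells (1413 ± 92.7 against 1173 ± 19.4 CPM), as was HOXB13 (288 ± 16.3 against 274 ± 5.20 CPM). The other luminal markers were lower (SD, n = 3 each). The lower sum in depleted cells stands beside every depletion result here, and its part in them was not tested. Genes of other marker lists moved as well, and their part in the results was not tested. The 3 endothelial genes summed to 11.9 to 14.7 CPM in depleted cells and 6.63 to 7.69 CPM in the shRNA control, nearly all of it VWF, and the 3 hepatocyte genes to 3.80 to 4.35 CPM in depleted cells and 2.63 to 3.21 CPM in the shRNA control. The basal marker TP63 had at most 2 reads in any library, the leukocyte gene PTPRC at most 12 and the endothelial gene PECAM1 had 0. Over all libraries VWF stood at 6.61 to 14.7 CPM, COL1A1 at 6.06 to 16.4 CPM, KRT14 at 0.428 to 3.69 CPM and ALB at 1.01 to 3.10 CPM. Vector control replicate 3 had a mitochondrial share of 0.691% of its reads, against 1.04% and 1.24% in the other vector controls, and calls on named genes that change without that library are given beside them.

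Of the 44 members, 36 had enough reads to be tested and 8 did not. Levels of different genes are compared per kilobase of exon, since a longer gene collects more reads. On this scale ABCE1, ABCF1 and ABCF2, which lack membrane spans, led the family together with the drug exporter ABCC1. ABCF3, which lacks them too, was lower, at 14.8 CPM per kilobase. ABCE1, which splits ribosomes after translation, averaged 28.1 CPM per kilobase over all libraries, ABCF2 27.4, ABCF1 25.4 and ABCC1 22.6. These 4 had no single order over the 12 libraries, and their ranges overlapped: ABCE1 spanned 20.5 to 38.0 CPM per kilobase, ABCF2 21.5 to 35.8, ABCF1 18.9 to 34.4 and ABCC1 17.7 to 31.5. Their order differed by group. ABCC1 had the lowest mean of the 4 with the vector control (18.9 CPM per kilobase) and in overexpressing cells (19.7). It had the highest in the shRNA control (30.2), and stood at 21.6 in depleted cells.

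**Figure D1:**
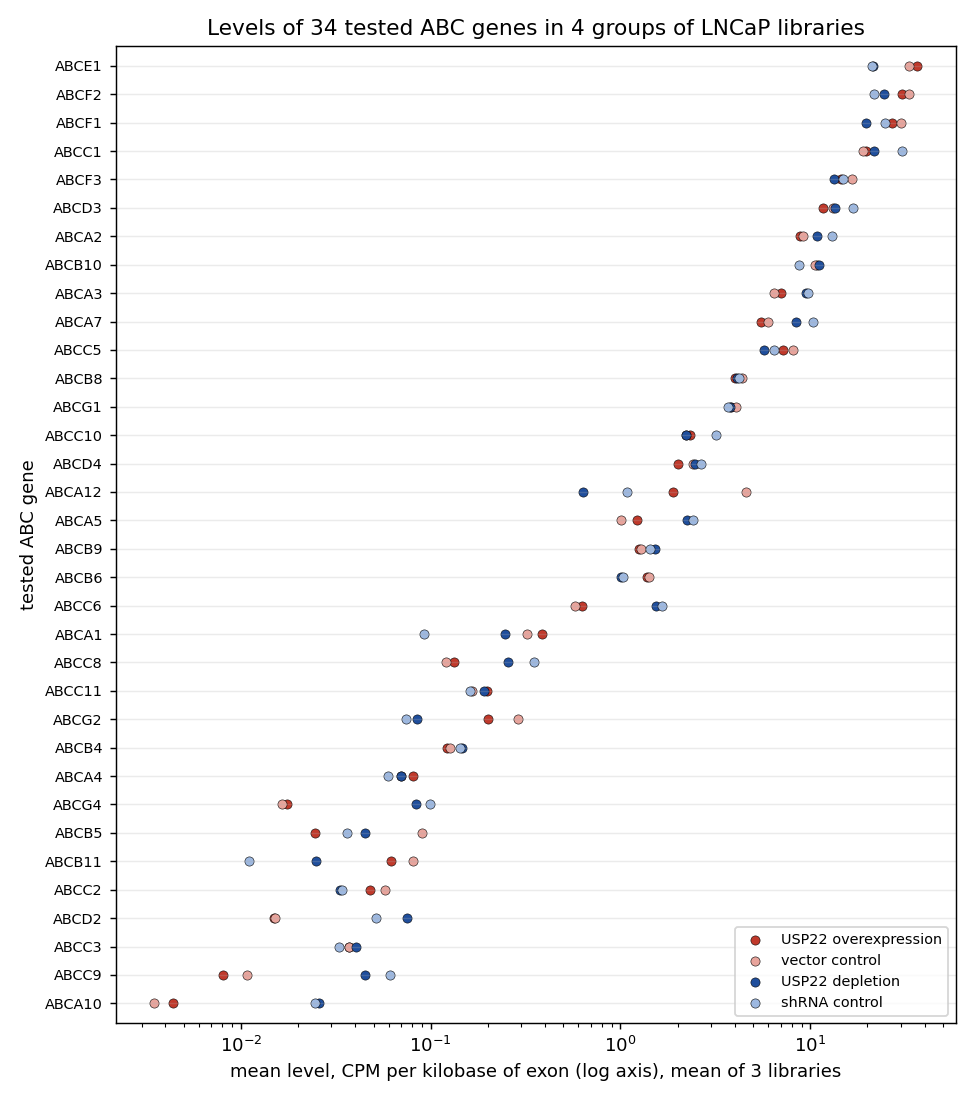
Mean level of 34 of the 36 tested ABC genes in CPM per kilobase of exon (log axis), with 1 point per group (mean of 3 libraries). ABCE1, ABCF2, ABCF1 and ABCC1 stand at the top with averages of 22.6 to 28.1 CPM per kilobase, and the points of ABCA12 and ABCA1 are among those that spread across groups.

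Of the classical drug pumps, ABCB1 was near the limit of detection and ABCG2 was low but measurable. ABCB1, which encodes P-glycoprotein, had 47 reads over all 12 libraries and at most 10 in any one, and was not tested. ABCG2, the breast cancer resistance protein gene, averaged 1.01 ± 0.087 CPM in overexpressing cells, against 1.45 ± 0.440 CPM with the vector control, and 0.427 ± 0.0831 CPM in depleted cells and 0.376 ± 0.0849 CPM in the shRNA control (SD, n = 3 each). Its levels in both pairs overlapped. Neither comparison of ABCG2 passed the test (log2 fold change -0.52 with an SE of 0.23, edgeR adjusted p = 0.23 on overexpression, and 0.20 with an SE of 0.27, edgeR adjusted p = 0.679 on depletion). The other untested members were ABCA6, ABCA8, ABCA9, ABCA13, ABCC12, ABCG5 and ABCG8, with 5 to 77 reads in total, and 3 reads in a library correspond to 0.0269 to 0.0423 CPM. Some members that lie next to each other on a chromosome differed in level and others did not. In the RefSeq order of coding genes on GRCh38.p14, ABCA8, ABCA9, ABCA6, ABCA10 and ABCA5 form an unbroken run on chromosome 17, in which ABCA5 stood at 1.72 CPM per kilobase, ABCA10 at 0.0145, ABCA6 at 0.00104, ABCA9 at 0.00117 and ABCA8 at 0.000406, the last 3 from 5 to 17 reads in all. On chromosome 2 ABCG5 stood at 0.0133 CPM per kilobase beside ABCG8 at 0.00464.

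On USP22 overexpression 2 of the 36 tested members changed, and both were lower. ABCA12, which exports glucosylceramides in skin, fell to 0.412 of the vector control level, and ABCB5, a transporter studied in melanoma cells, fell to 0.275. Over all 26076 tested genes 4.11% changed in this comparison, and among the 14870 tested protein-coding genes 6.01%, so the members' share of 5.56% was near the background. By direction, 2.6% of all tested genes and 3.92% of the protein-coding ones were lower, and 1.51% and 2.08% were higher. No member was called higher by edgeR in the main fit, by DESeq2 or by limma voom, and ABCA1 alone was higher at an unadjusted p under 0.05. With no filter on low counts edgeR called ABCA5 higher (log2 fold change 0.29, edgeR adjusted p = 0.0220), where 4.64% of all tested genes were called. Without vector control replicate 3 the count was 6, of which ABCA3 and ABCC10 were higher and ABCD3 and ABCD4 lower beside the 2 named. Without overexpression replicate 3 it was 3. Of all tested genes 6.85% were called without vector control replicate 3 and 2.34% without overexpression replicate 3. The median log2 fold change was -0.06 over the tested members and -0.01 over all tested genes.

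On USP22 depletion 10 of the 36 tested members changed, 3 higher and 7 lower. ABCA1, the exporter that hands cholesterol and phospholipid to apolipoprotein A-I, rose 2.68-fold, and smaller rises were found in the mitochondrial transporter ABCB10 and in ABCF2. The falls were in ABCA12, the drug exporters ABCC1, ABCC5 and ABCC10, the sulfonylurea receptor ABCC8, the peroxisomal transporter ABCD3 and the translation factor ABCF1. The background was 19.8% over all tested genes and 28.3% over tested protein-coding genes, so the members' share of 27.8% was near the background here too. By direction, 10.4% of all tested genes and 14.9% of the protein-coding ones were lower, and 9.4% and 13.4% were higher. The count was 15 without vector control replicate 3, where 31.1% of all tested genes were called. It was 6 without shRNA control replicate 1 or depletion replicate 1, where 13.2% and 13.6% were called. The median log2 fold change was -0.03 over the tested members and 0.00 over all tested genes.

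**Figure D2:**
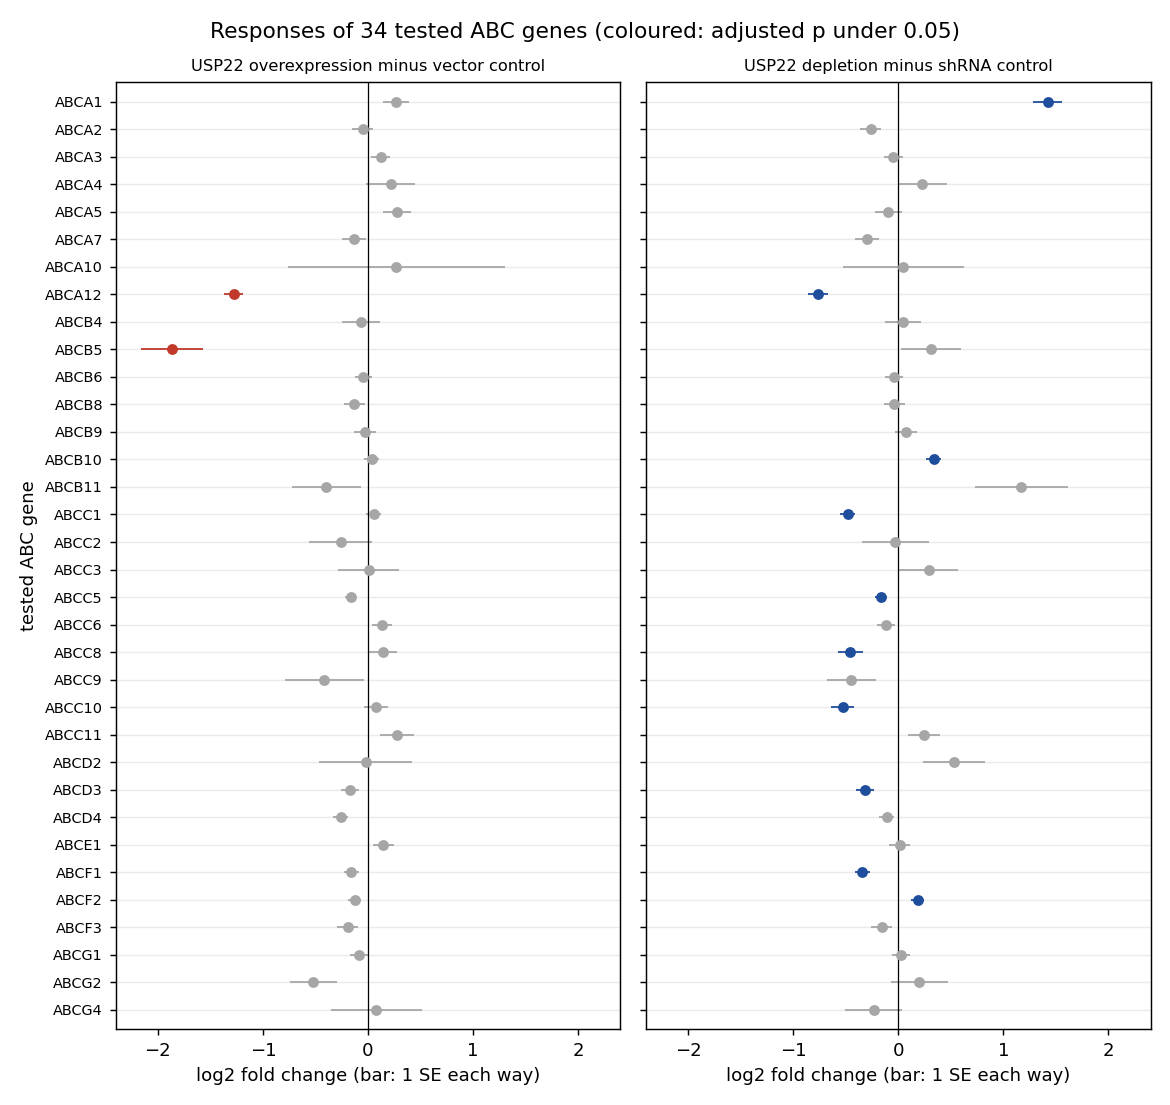
Log2 fold change of 34 of the 36 tested ABC genes on USP22 overexpression against the vector control (left) and on USP22 depletion against the shRNA control (right), with bars of 1 SE each way. Coloured points passed an edgeR adjusted p of 0.05, which are 2 on the left (ABCA12 and ABCB5) and 10 on the right, with ABCA1 farthest to the right at 1.42.

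Among the lipid exporters, ABCA1 changed most on depletion. ABCA1 (ENSG00000165029) stood at 2.93, 2.98 and 2.51 CPM in the 3 depleted libraries, against 1.03, 0.886 and 1.22 CPM in the shRNA controls. Every depleted library was above every shRNA control, and the log2 fold change was 1.42 (SE 0.14 by edgeR, adjusted p = 1.78e-06). In overexpressing cells ABCA1 had 4.09, 4.38 and 4.71 CPM, against 3.48, 3.47 and 4.03 CPM in the vector control. These groups did not overlap either, but the difference did not pass the test (log2 fold change 0.26 with an SE of 0.12, edgeR adjusted p = 0.266). The response to overexpression was lower than that to depletion by 1.16 on the log2 scale (log2 difference -1.16 with an SE of 0.18, edgeR adjusted p = 0.000697). The depleted libraries remained below the 3 vector controls, from which the shRNA control itself was 1.80 log2 units lower (log2 fold change -1.80 with an SE of 0.14, edgeR adjusted p = 2.69e-08). That comparison of control lines shares its libraries with both USP22 comparisons.

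ABCA12 (ENSG00000144452) was the member called lower in both comparisons. Overexpressing libraries had 18.4, 17.4 and 17.3 CPM, against 47.1, 43.8 and 38.1 CPM in the vector control. Depleted libraries had 5.74, 5.67 and 6.60 CPM, against 9.23, 10.9 and 10.5 CPM in the shRNA control. The groups did not overlap in either pair. The log2 fold change was -1.28 on overexpression (SE 0.09 by edgeR, adjusted p = 1.93e-07) and -0.77 on depletion (SE 0.09 by edgeR, adjusted p = 2.49e-05). The fall was larger on overexpression by 0.51 log2 units (log2 difference -0.51 with an SE of 0.13, edgeR adjusted p = 0.0171). That difference did not pass without shRNA control replicate 1 (edgeR adjusted p = 0.0635) or depletion replicate 3 (0.0533). The control lines themselves differed by more than either fall, with ABCA12 lower under the control shRNA (log2 fold change -2.08 with an SE of 0.09, edgeR adjusted p = 9.81e-11). Both falls thus began at different levels, and the bearing of this on their sizes was not tested.

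The promoters of ABCA1 and ABCA12 are shown because these genes had the largest called changes in the USP22 comparisons among members averaging at least 1 CPM over all libraries. Each sequence is the 250 bases before a transcription start in RefSeq, on GRCh38.p14, read 5′ to 3′ on the gene's minus strand, and capitals mark matches to the motifs named after them. ABCA12 has 2 starts in that table, and the counts cover the whole gene, so the start in use was not measured.
ABCA1, chr9:104928156-104928405: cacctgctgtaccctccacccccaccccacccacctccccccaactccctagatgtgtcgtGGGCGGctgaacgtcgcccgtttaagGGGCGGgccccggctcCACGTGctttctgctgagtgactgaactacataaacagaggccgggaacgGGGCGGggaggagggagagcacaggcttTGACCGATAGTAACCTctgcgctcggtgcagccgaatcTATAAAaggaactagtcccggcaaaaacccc
ABCA12, chr2:215138627-215138876: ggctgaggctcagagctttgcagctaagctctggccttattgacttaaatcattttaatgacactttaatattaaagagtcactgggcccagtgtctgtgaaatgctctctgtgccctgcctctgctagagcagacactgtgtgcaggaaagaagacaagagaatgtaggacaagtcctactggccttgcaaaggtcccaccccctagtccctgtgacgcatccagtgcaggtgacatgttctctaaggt
ABCA12, chr2:215032087-215032336: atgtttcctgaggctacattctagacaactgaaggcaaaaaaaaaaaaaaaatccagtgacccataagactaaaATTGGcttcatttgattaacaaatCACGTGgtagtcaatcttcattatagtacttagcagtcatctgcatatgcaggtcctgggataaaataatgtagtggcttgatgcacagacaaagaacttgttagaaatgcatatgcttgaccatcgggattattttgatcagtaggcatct

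Motifs were searched as exact letters on both strands: the GC box as GGGCGG, the E box as CACGTG, the CCAAT box as CCAAT, the TATA box as TATAAA and the nuclear receptor half-site as AGGTCA. A DR4 element, the kind of site that liver X receptors bind, was searched as AGGTCA repeated after a spacer of 4 bases with at most 2 mismatches, and this rule was set with the ABCA1 sequence known. In ABCA1 the DR4 match begins 69 bases before the start on the opposite strand, the TATA box 31, the E box 147 and the GC boxes 189, 163 and 97 bases before it. In ABCA12 the first window has no match to these letters, and the second has an E box 152 and a CCAAT box 176 bases before it. RefSeq promoters were matched for 34 of the 44 members, 52 in all. Of these, 9 (17.3%) had the E box, against 6.34% of the 35116 promoters in the table, 4 (7.69%) had the DR4 match, against 2.03%, and 25 (48.1%) had a GC box, against 42.6%. The CCAAT box was in 21.2% of the members' promoters and 32.0% of all, and the TATA box in 11.5% and 10.7%. The DR4 share includes ABCA1, from whose sequence that rule was set. The nuclear receptor half-site was in 3.85% of the members' promoters and in 12.1% of all promoters. A match says only that the letters are present.

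The remaining lipid exporters moved less. ABCA2, ABCA3, ABCA5 and ABCA7, of which ABCA3 loads surfactant lipid in lung and the others act on cell and endosomal membranes, had log2 fold changes of -0.13 to 0.27 on overexpression and -0.30 to -0.05 on depletion. None of these 8 values passed the test in the main fit. ABCA7 averaged 70.1 ± 2.89 CPM in depleted cells and 86.4 ± 4.39 CPM in the shRNA control (SD, n = 3 each; log2 fold change -0.30 with an SE of 0.11, edgeR adjusted p = 0.0781), and without vector control replicate 3, which enters through the shared estimate of spread, the same difference passed (edgeR adjusted p = 7.01e-05), as it did without vector control replicate 1 (0.0324). ABCA2 (log2 fold change -0.26 on depletion, edgeR adjusted p = 0.0771) likewise passed without vector control replicate 3 (0.000424). ABCA3 stood at a log2 fold change of 0.12 on overexpression (SE 0.09 by edgeR, adjusted p = 0.521), and 0.27 without vector control replicate 3 (edgeR adjusted p = 0.00331). ABCG1, which exports cholesterol to lipoprotein particles and is a textbook target of liver X receptors beside ABCA1, averaged 23.1 ± 0.521 CPM in depleted cells and 22.6 ± 1.87 CPM in the shRNA control (log2 fold change 0.03 with an SE of 0.08, edgeR adjusted p = 0.87).

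Of the 9 tested members of subfamily C, 4 fell on depletion and 0 rose (0 also by DESeq2, by limma voom and at an unadjusted p under 0.05), among them 3 exporters of drugs and conjugates. Of all tested genes 10.4% were lower on depletion, and of the protein-coding ones 14.9%. ABCC1, or MRP1, which exports glutathione conjugates and several anticancer drugs, had 163, 156 and 173 CPM in depleted libraries, against 225, 223 and 239 CPM in the shRNA control. The groups did not overlap, with a log2 fold change of -0.48 (SE 0.07 by edgeR, adjusted p = 0.000165). In overexpressing libraries ABCC1 had 149, 142 and 156 CPM, against 134, 136 and 161 CPM in the vector control, and these overlapped (log2 fold change 0.05 with an SE of 0.07, edgeR adjusted p = 0.737). The responses to overexpression and depletion differed by 0.54 (SE 0.10 by edgeR, adjusted p = 0.00285). The depleted libraries overlapped the vector control range of ABCC1, while every shRNA control exceeded it (log2 fold change 0.68 with an SE of 0.07, edgeR adjusted p = 1.37e-06).

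ABCC10, a related exporter of conjugates and taxanes, had 16.6, 18.2 and 18.6 CPM in depleted libraries, against 27.3, 23.8 and 25.95 CPM in the shRNA control. Again no depleted library reached a library of the shRNA control (log2 fold change -0.53 with an SE of 0.11, edgeR adjusted p = 0.00296). All depleted libraries lay within the vector control range of ABCC10. The shRNA control was itself above the vector control (log2 fold change 0.53 with an SE of 0.11, edgeR adjusted p = 0.00112). In overexpressing libraries ABCC10 had 18.0, 19.0 and 19.3 CPM, against 15.0, 16.2 and 22.2 CPM in the vector control (log2 fold change 0.08 with an SE of 0.11, edgeR adjusted p = 0.77). Vector control replicate 3 was the highest of these, and without it the difference passed the test (log2 fold change 0.26, edgeR adjusted p = 0.0226).

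ABCC5, an exporter of cyclic nucleotides, had 65.2, 64.9 and 66.1 CPM in depleted libraries, against 72.2, 73.0 and 75.2 CPM in the shRNA control. The groups were separate but close, and the fall of 0.17 log2 units was near the threshold (log2 fold change -0.17 with an SE of 0.06, edgeR adjusted p = 0.0444). It no longer passed without any 1 of the overexpression, shRNA control or depletion libraries (edgeR adjusted p = 0.0679 to 0.203), under RLE scaling (0.0626) or with no filter on low counts (0.257). Overexpressing libraries had 83.6, 82.3 and 81.6 CPM of ABCC5, against 95.9, 86.7 and 95.1 CPM in the vector control (log2 fold change -0.17 with an SE of 0.06, edgeR adjusted p = 0.113).

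Other exporters of conjugates had few reads. ABCC11 averaged 1.39 ± 0.230 CPM in depleted cells and 1.17 ± 0.102 CPM in the shRNA control, and ABCC2 and ABCC3 stayed under 0.5 CPM in every group mean (SD, n = 3 each). ABCC6, whose loss causes ectopic mineralization and which has near-identical pseudogenes that may share its reads, averaged 11.6 ± 0.323 CPM in depleted cells and 12.6 ± 0.550 CPM in the shRNA control. None of these 4 genes passed the test in either comparison.

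ABCC8, the sulfonylurea receptor that regulates potassium channels in pancreatic beta cells, had 2.87, 3.29 and 3.52 CPM in depleted libraries, against 4.72, 4.14 and 4.40 CPM in the shRNA control. It fell without overlap (log2 fold change -0.46 with an SE of 0.12, edgeR adjusted p = 0.0111), and the call ended without shRNA control replicate 1 (edgeR adjusted p = 0.0764) or depletion replicate 1 (0.0873). Overexpressing libraries had 1.63, 1.497 and 1.89 CPM of ABCC8, against 1.40, 1.54 and 1.61 CPM in the vector control, and these overlapped. Its relative ABCC9 had a depletion value of -0.45 on the log2 scale (SE 0.23 by edgeR, adjusted p = 0.214), from 5 to 78 reads per library.

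ABCB5 (ENSG00000004846) was the member of subfamily B called on overexpression. Overexpressing libraries had 0.309, 0.146 and 0.225 CPM, against 0.749, 0.963 and 0.775 CPM in the vector control, from 12 to 79 reads per library over all groups. All overexpressing libraries were below all vector controls (log2 fold change -1.86 with an SE of 0.29, edgeR adjusted p = 0.00131). Depleted libraries had 0.368, 0.401 and 0.481 CPM of ABCB5, against 0.225, 0.396 and 0.389 CPM in the shRNA control, and these overlapped (log2 fold change 0.32 with an SE of 0.29, edgeR adjusted p = 0.513). The difference between the responses was -2.18 (SE 0.41 by edgeR, adjusted p = 0.0027). ABCB11, the bile salt export pump, had 0.235, 0.196 and 0.144 CPM in depleted libraries, against 0.0539, 0.0583 and 0.143 CPM in the shRNA control, a log2 fold change of 1.17 (SE 0.44) that did not pass (edgeR adjusted p = 0.0771) but did without vector control replicate 3 (edgeR adjusted p = 0.0341) or shRNA control replicate 3 (0.0258).

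ABCB10, a mitochondrial transporter that acts in heme synthesis, was the member of subfamily B called on depletion. It had 48.3, 47.3 and 45.5 CPM in depleted libraries, against 37.4, 39.9 and 34.5 CPM in the shRNA control. It rose without overlap (log2 fold change 0.34 with an SE of 0.07, edgeR adjusted p = 0.00246), whereas the overexpressing libraries, at 43.8, 48.0 and 46.1 CPM, overlapped the vector controls at 46.6, 46.3 and 41.8 CPM. ABCB8 and ABCB6 had depletion values of -0.04 each on the log2 scale (edgeR adjusted p = 0.859 and 0.799).

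Peroxisomal members import fatty acyl groups for beta-oxidation. ABCD3, the peroxisomal membrane protein of branched-chain acyl and bile acid intermediates, had 105, 107 and 95.1 CPM in depleted libraries, against 128, 133 and 120 CPM in the shRNA control. It fell without overlap (log2 fold change -0.31 with an SE of 0.08, edgeR adjusted p = 0.0147), but the call ended without shRNA control replicate 1 (edgeR adjusted p = 0.0863) or 2 (0.117) and without depletion replicate 1 (0.0659) or 3 (0.123). Overexpressing libraries had 87.2, 91.1 and 88.7 CPM of ABCD3, against 109, 107 and 84.2 CPM in the vector control. Here vector control replicate 3 was the low one, and without it the fall passed the test (log2 fold change -0.28, edgeR adjusted p = 0.00131, against -0.17 and edgeR adjusted p = 0.299 with it). ABCD4, a lysosomal vitamin B12 transporter, averaged 17.7 ± 1.26 CPM in overexpressing cells and 21.2 ± 0.988 CPM in the vector control (log2 fold change -0.26 with an SE of 0.07), just short of the threshold (edgeR adjusted p = 0.0511), and passed without vector control replicate 3 (0.0354) or overexpression replicate 3 (0.0423).

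The members that act on ribosomes did not move together. ABCF1, which binds the initiation factor eIF2, had 90.6, 90.2 and 85.4 CPM in depleted libraries, against 113, 115 and 109 CPM in the shRNA control. It fell without overlap (log2 fold change -0.34 with an SE of 0.07, edgeR adjusted p = 0.00296). ABCF2 had 101, 108 and 99.6 CPM in depleted libraries, against 90.3, 89.8 and 90.9 CPM in the shRNA control. It rose by a small amount near the threshold (log2 fold change 0.18 with an SE of 0.06, edgeR adjusted p = 0.0436), and the call ended without any 1 of the overexpression or shRNA control libraries or depletion replicate 1 or 2 (edgeR adjusted p = 0.0550 to 0.0992). ABCE1 averaged 134 ± 6.37 CPM in depleted cells and 133 ± 4.15 CPM in the shRNA control (SD, n = 3 each; log2 fold change 0.01 with an SE of 0.10, edgeR adjusted p = 0.953). On overexpression ABCF1, ABCF2, ABCF3 and ABCE1 had log2 fold changes of -0.19 to 0.15 and none passed the test. ABCF3 stood at -0.16 on depletion (edgeR adjusted p = 0.309), which passed without vector control replicate 3 (0.0159).

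**Figure D3:**
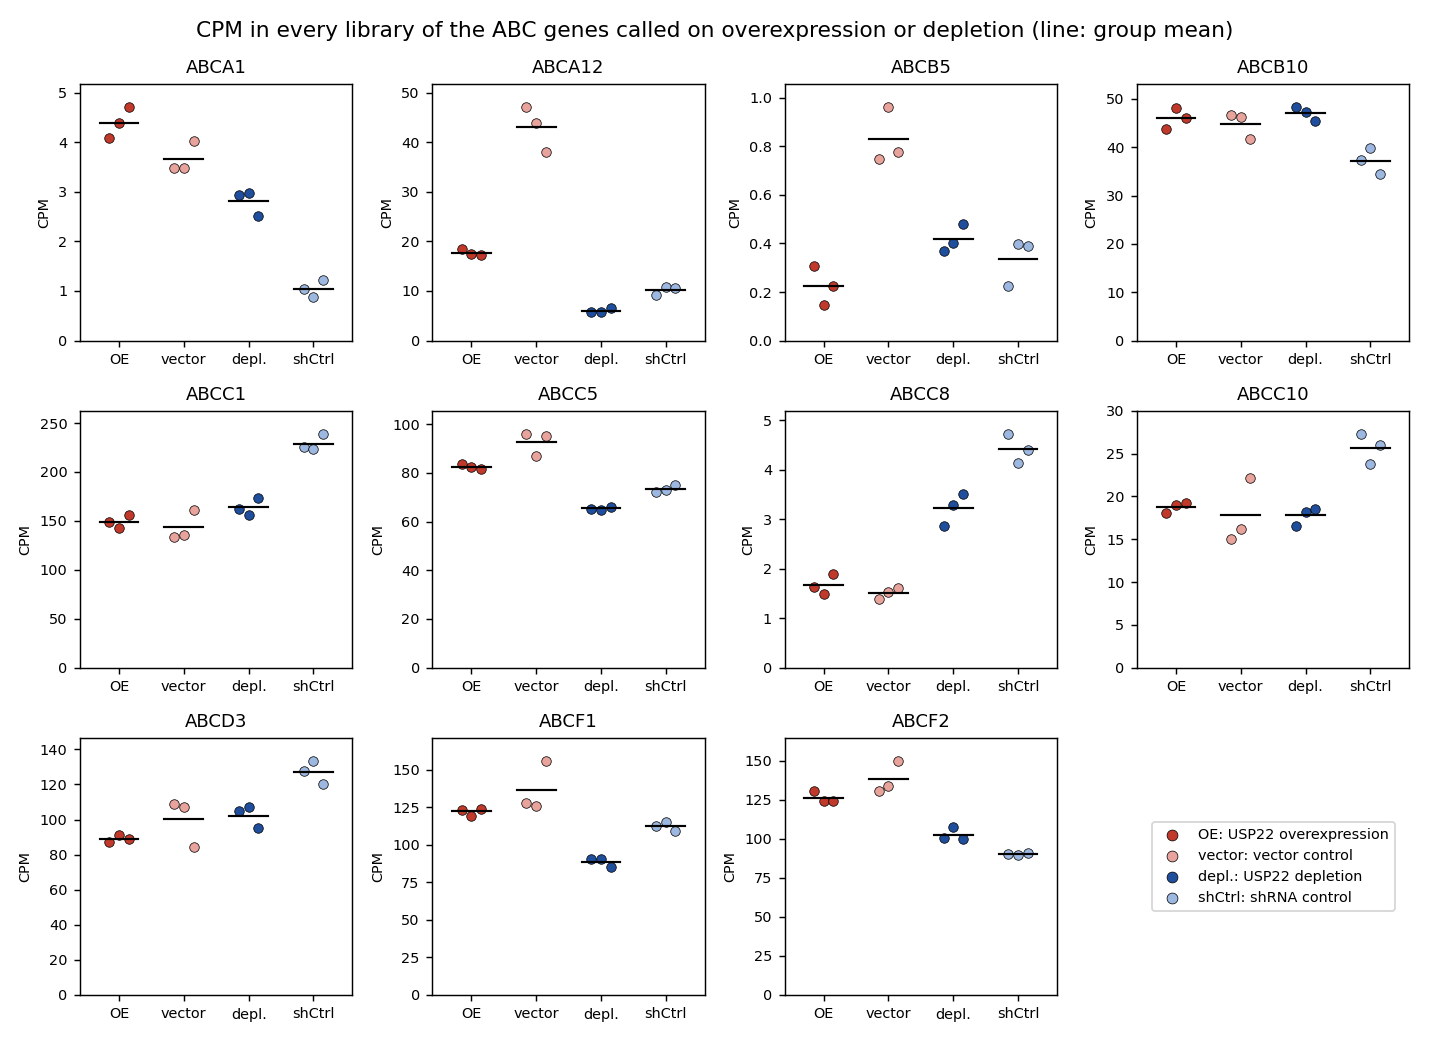
CPM (linear axes from 0) in each of the 12 libraries for the 11 ABC genes called on overexpression or depletion, with group means as lines. ABCA1 in depleted cells (2.51 to 2.98 CPM) lies above the shRNA control (0.886 to 1.22 CPM), and ABCA12 is lower in overexpressing cells (17.3 to 18.4 CPM) than in the vector control (38.1 to 47.1 CPM).

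Both USP22 responses were set against each other gene by gene. The response to overexpression differed from that to depletion in 8 of the 36 members, with a background of 10.9% over all tested genes and 15.9% over tested protein-coding genes, against 22.2% for the members. By direction, 3 members were positive, where 4.91% of all tested genes and 6.93% of the protein-coding ones were, and 5 were negative, where 5.98% and 8.96% were. The difference was positive for ABCC1, ABCC10 and ABCC8 and among the negative ones were ABCA1, ABCA12, ABCB5 and ABCF2. Only ABCA1, ABCB5 and ABCC1 also passed an adjusted p of 0.01 in this test. The number depended on single libraries. Without vector control replicate 3 it was 15, and among the added ones were ABCB10 (log2 difference -0.35, edgeR adjusted p = 0.00177), ABCF1 (0.28, 0.00134), ABCA2 (0.37, 0.00142), ABCA7 (0.37, 0.00119), ABCA3 (0.31, 0.00298), ABCC6 (0.35, 0.0253) and ABCB11 (-1.80, 0.0167). It was 3 without shRNA control replicate 1, 4 without overexpression replicate 3 or depletion replicate 1, and 5 without overexpression replicate 2, shRNA control replicate 2 or depletion replicate 2. In those fits 7.14% to 8.43% of all tested genes were called, and 19.8% without vector control replicate 3.

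The control lines differed from each other in more members than either USP22 comparison called. Of the 36 tested members 26 differed between the shRNA control and the vector control, 13 higher and 13 lower, where 43.0% of all tested genes and 56.9% of tested protein-coding genes were called, against 72.2% of the members. By direction, 21.7% of all tested genes and 28.3% of the protein-coding ones were higher, and 21.3% and 28.6% were lower. The lines differ in vector, shRNA and doxycycline, and these cannot be told apart. In the shRNA control ABCC6 was higher by 1.53 log2 units (SE 0.09 by edgeR, adjusted p = 3.08e-09) and ABCA5 by 1.24 (SE 0.13 by edgeR, adjusted p = 1.21e-06), whereas ABCG2 stood at a log2 fold change of -1.95 (SE 0.25 by edgeR, adjusted p = 7.54e-06) and ABCE1 of -0.64 (SE 0.10 by edgeR, adjusted p = 7.56e-05). ABCA10, ABCC9, ABCD2 and ABCG4 were at 0.206 to 0.712 CPM in the shRNA control and 0.0293 to 0.125 CPM in the vector control. ABCB11 went the other way, at 0.0852 CPM in the shRNA control and 0.623 CPM in the vector control. Members that enter the test through the lines where they are high had to differ, so the counts of members called are given as descriptions. Without vector control replicate 3 the count was 29, with ABCB9, ABCC2 and ABCD4 added, where 45.9% of all tested genes were called. Others called between the control lines and in neither USP22 comparison included ABCA2, ABCA3, ABCA7, ABCB6 and ABCB11. All 10 members called on depletion were also called between the control lines, 7 with the opposite sign. Among these 7 were ABCC8 (log2 fold change 1.55 between the control lines), ABCD3 (0.34) and ABCB10 (-0.27). ABCA12, ABCC5 and ABCF1 had the same sign in both. The shRNA control enters both comparisons, and the same count over all tested genes was not made.

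**Figure D4:**
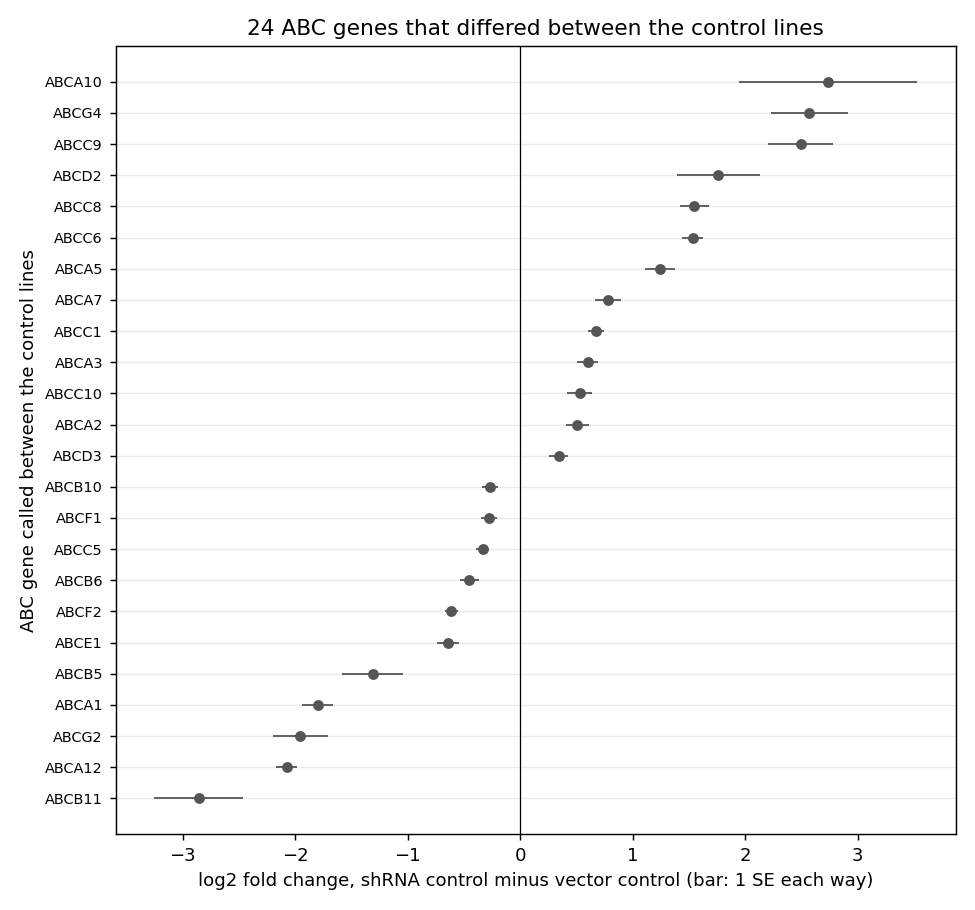
Log2 fold change, shRNA control minus vector control, with bars of 1 SE each way, for 24 of the 26 ABC genes that passed an edgeR adjusted p of 0.05. The points run from -2.86 for ABCB11 to 2.74 for ABCA10, with 13 above 0 and 11 below it. These ends rest on few reads, as ABCB11 had 5 to 70 per library and ABCA10 had 0 to 31.

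Partner genes of the transporters were counted in 7 lists, in the same fits. Of 15 tested liver X receptor targets and sterol handling genes, 5 fell on depletion and 1 on overexpression. For this and the next lists the shares called over all tested and over protein-coding genes were 19.8% and 28.3% on depletion and 4.11% and 6.01% on overexpression, and a list's count is a description beside them. Of protein-coding genes 14.9% were lower and 13.4% higher on depletion, and 3.92% and 2.08% on overexpression. NPC1, which moves cholesterol out of lysosomes, was lower in both comparisons, at 148 ± 3.69 CPM in overexpressing cells against 212 ± 11.7 CPM with the vector alone (edgeR adjusted p = 2.75e-05) and 81.9 ± 2.10 CPM in depleted cells against 120 ± 1.91 CPM in the shRNA control (edgeR adjusted p = 3.15e-06; SD, n = 3 each). RXRA, the partner receptor of the liver X receptors, fell on depletion (log2 fold change -0.46 with an SE of 0.09, edgeR adjusted p = 0.00125). The list's median log2 fold change on depletion was -0.06, beside 0.00 over all tested genes. No gene of the list was called higher on depletion by edgeR, DESeq2 or limma voom, or at an unadjusted p under 0.05.

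Genes that act beside ABCD3 in peroxisomes were counted next. Of 27 tested import and beta-oxidation genes, 8 fell and 2 rose on depletion, and 3 fell on overexpression, beside 28.3% and 6.01% of protein-coding genes called. PEX6 (log2 fold change -0.63 with an SE of 0.12, edgeR adjusted p = 0.00172), AMACR, the racemase used as a prostate cancer marker (-0.50 with an SE of 0.10, edgeR adjusted p = 0.00213), and ACAA1 (-0.45 with an SE of 0.11, edgeR adjusted p = 0.00692) fell on depletion. The list's median on depletion was -0.03. Of 28 iron-sulfur and heme genes, 7 rose and 1 fell on depletion, with a median of 0.12. In either direction this was near the 28.3% of protein-coding genes. By direction, 13.4% of protein-coding genes were higher and 14.9% lower. GLRX5 rose (0.32 with an SE of 0.06, edgeR adjusted p = 0.0011) and ALAD fell (-0.53 with an SE of 0.08, edgeR adjusted p = 0.000183). FDXR rose as well (0.43 with an SE of 0.13, edgeR adjusted p = 0.0323), a call lost without any 1 shRNA control library or depletion replicate 1 or 2 (edgeR adjusted p = 0.0529 to 0.121).

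Of 22 glutathione and conjugation genes, 2 rose and 3 fell on depletion and 2 fell on overexpression, where 19.8% and 4.11% of all tested genes were called. SLC7A11, which imports cystine for glutathione synthesis, averaged 234 ± 9.46 CPM in depleted cells and 169 ± 5.54 CPM in the shRNA control (edgeR adjusted p = 0.00232), and GSTA1 fell on depletion (log2 fold change -0.53 with an SE of 0.08, edgeR adjusted p = 0.000238). SULT2B1, a sulfotransferase of cholesterol and other sterols, averaged 4.68 ± 0.113 CPM in overexpressing cells and 8.09 ± 1.31 CPM in the vector control (edgeR adjusted p = 0.000363; SD, n = 3 each). The depletion value of SULT2B1, -0.24 (edgeR adjusted p = 0.148), passed without vector control replicate 3 (0.0338), as did the overexpression value of SLC7A11 (-0.25, edgeR adjusted p = 0.0021, against -0.11 and 0.6 with it). Of 18 ribosome recycling and initiation genes, 3 rose on depletion, near the 13.4% of protein-coding genes that were higher. They were EIF2S2 (log2 fold change 0.33 with an SE of 0.06, edgeR adjusted p = 0.00064), EIF1 (0.23 with an SE of 0.07, edgeR adjusted p = 0.0232) and EIF5 (0.17 with an SE of 0.05, edgeR adjusted p = 0.0418). The EIF1 call ended without shRNA control replicate 1 or 2 (0.0764 and 0.0654), and the EIF5 call without any 1 of 9 libraries (0.0504 to 0.122).

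Of 19 sphingolipid and apolipoprotein genes, 3 rose and 6 fell on depletion, with a median of -0.19, where 28.3% of protein-coding genes were called. UGT8 (log2 fold change 0.77 with an SE of 0.08, edgeR adjusted p = 7.48e-06) and APOD (0.75 with an SE of 0.12, edgeR adjusted p = 0.000334) rose, and ELOVL7 fell (-0.67 with an SE of 0.12, edgeR adjusted p = 0.000707). On overexpression ELOVL7 stood at -0.16 (edgeR adjusted p = 0.508), and at -0.33 without vector control replicate 3 (0.00114). Of 6 tested genes of ABC proteins with other symbols, partners and related proteins, 3 fell on depletion, with a median of -0.45, where 14.9% of protein-coding genes were lower. TAP1, an ABC transporter that loads peptides for MHC class I, averaged 20.9 ± 1.30 CPM in depleted cells and 34.2 ± 1.28 CPM in the shRNA control (SD, n = 3 each; log2 fold change -0.71 with an SE of 0.09, edgeR adjusted p = 4.21e-05). Its partner gene TAPBP (-0.74 with an SE of 0.06, edgeR adjusted p = 3.13e-07) and TAPBPL, a relative of TAPBP (-0.73 with an SE of 0.13, edgeR adjusted p = 0.00104), were also lower in depleted cells. Because each library is bulk RNA, fewer cells of a type and less RNA per cell cannot be told apart in any of these results.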

How the data were processed

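Raw read counts per Ensembl gene ID were deposited by the authors in 1 table of 63677 IDs. Per the submitters' processing notes, the tools named were featureCounts 1.5.0-p3, STAR 2.5.2a and DESeq2 1.14.1, on hg19. Not given in the sources used here: annotation release, strand setting, handling of multi-mapping reads. Paralogs, pseudogenes and antisense partners may therefore share reads. Symbols came by ID (81.9% of IDs), and gene types and exon lengths from GENCODE 29, which is of another build. Of symbols that match the rule, 1 is a pseudogene, and some genes are not reported here by name.

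Counts were analysed with edgeR 4.0.16 in R 4.3.3: filterByExpr by group (26076 genes), TMM scaling and a quasi-likelihood fit to all 12 libraries (8 residual degrees of freedom). Benjamini-Hochberg adjustment ran over every tested gene of a comparison, with a threshold of 0.05. CPM use TMM-scaled library sizes, and standard errors come from the F statistic. The procedure was tested on simulated data in which all groups shared the same spread for a gene, and the outcome is not given here. In the real data the vector controls differed most among themselves. The chi-square per degree of freedom between replicate libraries was 51.8 to 151 there and 7.77 to 49.5 in the other groups. Genes named were members called in a USP22 comparison, the highest members per kilobase, and up to 3 called genes per partner list. ABCA3, ABCA7, ABCB11, ABCD4 and ABCG2 and further uncalled members were named after their values were seen. Members and lists were chosen with earlier results of these data known. Alternatives included DESeq2 1.42.0, limma voom (limma 3.58.1), other scalings and filters, and leaving out each library.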

Additional observations from a re-analysis of the deposited data

Results flagged for a closer look

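The responses to raised and lowered USP22 differed in 8 members by the interaction test (edgeR adjusted p under 0.05), as overexpression response minus depletion response on the log2 scale. Values were -1.16 for ABCA1, -0.51 for ABCA12, -2.18 for ABCB5 and -0.31 for ABCF2, and 0.54 for ABCC1, 0.61 for ABCC10 and 0.60 for ABCC8. With each of the 12 libraries left out in turn, the calls of ABCA1, ABCB5 and ABCC1 held in 12 of 12 fits. The call held in 10 for ABCA12, 8 for ABCC10, 5 for ABCF2 and 3 for ABCC8. Among the partner genes named, the same test gave 0.52 for ALAD, 0.47 for GSTA1, 0.79 for TAPBP, 0.83 for TAPBPL and 0.55 for TAP1. It gave -0.44 for GLRX5, -0.55 for SULT2B1, -0.58 for SLC7A11, -0.43 for EIF2S2 and -0.61 for UGT8. ABCA12 fell in both comparisons, and SULT2B1 fell on overexpression with a depletion value of -0.24 (edgeR adjusted p = 0.148, and 0.0338 without vector control replicate 3), while for ABCC1 and ABCC10 the depletion response alone passed its own test. Groups of 3 libraries are too small to look for single outlying libraries by rule.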

How the results depend on the processing

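The number of members called was 2 on overexpression, 10 on depletion, 8 for the difference of responses and 26 between control lines. On overexpression DESeq2 called 4, ABCC5 and ABCD4 being the added ones, and 6.83% of all tested genes. On depletion DESeq2 called 12, with ABCB11 among the added ones (DESeq2 adjusted p = 0.0490), and 21.9% of all tested genes. A fit to only the libraries compared called 14 on depletion, with ABCA2, ABCA7 and ABCF3 among the added ones, and 2 on overexpression. In it 32.0% and 1.37% of all tested genes were called. With an adjusted p of 0.01 depletion gave 6 and the difference of responses 3, where 11.7% and 5.21% of all tested genes were called. Leaving out single libraries gave 2 to 6 on overexpression, 6 to 15 on depletion, 3 to 15 for the difference and 26 to 29 between control lines. The highest value in each case was without vector control replicate 3, and the lowest on depletion was without shRNA control replicate 1 or depletion replicate 1. The share called over all tested genes moved as well when single libraries were left out. It was 1.87% to 6.85% on overexpression, 13.2% to 31.1% on depletion, 7.14% to 19.8% for the difference and 35.6% to 45.9% between control lines. Values of single genes under the alternatives numbered 2288, with a control-line comparison of a single gene entered in duplicate. Of these values 98 lost a call, 22 gained one, 11 moved by more than 1 SE without a call, and 0 called values changed sign. The genes counted were chosen for a call in the main fit, so these numbers describe them alone.

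The replicate block called 3, 11, 9 and 27 members in the order above, adding ABCD4 on overexpression and ABCA2 and ABCA7 on depletion and losing ABCF2 there (edgeR adjusted p = 0.0509). The shares over all tested genes were 4.21%, 20.2%, 11.3% and 43.4%. Deviations of same-numbered libraries from their group means had correlations of -0.022 to 0.0827. Of 6 libraries, 3 on overexpression and 4 on depletion correlated best with their own number. With 3 libraries per group this check cannot decide whether same-numbered libraries were handled together. Among the partner lists, 11 of 14 counts moved by over 1.5 times in at least 1 alternative. On depletion the ranges were 3 to 6 for the liver X receptor list, 6 to 14 for peroxisome, 4 to 16 for iron-sulfur and heme, 4 to 10 for glutathione, 1 to 9 for ribosome and 8 to 15 for sphingolipid genes. On overexpression they were 0 to 4 for peroxisome, 2 to 5 for glutathione, 0 to 1 for iron-sulfur and heme, 0 to 2 for ribosome and 0 to 3 for sphingolipid genes. The cause was not tested. Members with few reads, such as ABCB5 with 12 to 79 per library, are limited by depth.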
